A study of Mus musculus with 10 samples.

Results

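Class II antigen presentation was followed through 10 genes of the major histocompatibility complex (MHC) class II pathway in muscle of mdx and normal mice. The members were H2-Aa, H2-Ab1, H2-Eb1, H2-Ea, H2-DMa, H2-DMb1, H2-DMb2, H2-Oa, Cd74 and Ciita. Every probe set that the platform annotation assigns to 1 of these genes alone was taken, which gave 11 probe sets of 12422, 2 of them for H2-DMa. The rule picks probe sets by annotation alone, but the members and the rule were chosen with earlier results of these data known. Of the 11, 6 had enough signal to be tested and 5 had not.

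The samples were gastrocnemius muscles, the large calf muscle, of 16-week-old male mdx mice (5 arrays), which lack functional dystrophin because of a mutation in the dystrophin gene, and of 16-week-old male normal mice (5 arrays, called control). The labels give no strain for either group, no batch and no pooling. Nor do they state that each array holds a different animal, so that p-values reflect only the scatter among these samples, some of which may be technical. The question is how expression differs in a muscle that undergoes cycles of damage and repair.

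Class II molecules are pairs of an alpha and a beta chain that carry peptides from the endosome to the cell surface, where CD4 T cells read them. In mouse, H2-Aa and H2-Ab1 encode the I-A pair, and H2-Ea and H2-Eb1 the I-E pair. The invariant chain, Cd74, fills the groove until endosomal proteases such as cathepsin S trim it. H2-DM, made of H2-DMa with H2-DMb1 or H2-DMb2, then exchanges the remaining fragment for antigen peptides, and H2-O, made of H2-Oa and H2-Ob, restrains H2-DM. Ciita is the coactivator that switches the class II promoters on, through factors that bind their X and Y boxes, and it is itself induced by interferon-gamma. Macrophages, dendritic cells and B cells are the usual class II cells, and resting muscle fibres make little.

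The promoters are shown because class II genes are known to share a control region. The RefSeq promoter table (build GRCm38.p6, 250 bases before to 50 after each annotated start) held windows for 6 of the 10 members, 7 windows in all, and for the partner gene H2-Ob. Windows were searched on both strands for CNNATGATG (letters of the X box), for TGATTGG (the Y box) and for TGACGTCA (the cyclic AMP element, which lies in the X box region of some class II genes). These letters were chosen after the windows had been read. The capitals mark the matches in the stretches below, read 5′ to 3′ on the gene's strand, each 55 bases long and cut to start 40 bases before the Y box letters, and no motif overlaps another.
H2-Aa, chr17:34287859-34287913, - strand: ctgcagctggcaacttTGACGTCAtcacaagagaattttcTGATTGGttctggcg
H2-Eb1, chr17:34305766-34305820, + strand: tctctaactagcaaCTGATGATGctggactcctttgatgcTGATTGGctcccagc
H2-DMb1, chr17:34153088-34153142, + strand: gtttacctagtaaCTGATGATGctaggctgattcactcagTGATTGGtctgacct
H2-DMb2, chr17:34145117-34145171, + strand: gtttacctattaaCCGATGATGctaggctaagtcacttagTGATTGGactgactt
H2-Oa, chr17:34092294-34092348, + strand: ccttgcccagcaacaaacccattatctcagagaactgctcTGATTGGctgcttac
H2-Ob, chr17:34238806-34238860, + strand: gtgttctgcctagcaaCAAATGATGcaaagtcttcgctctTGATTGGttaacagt
The stretches hold the Y box letters because they were cut around them. Of the 8 windows searched 6 hold these letters and both H2-DMa windows lack them, while 7.82% of the 32851 promoter windows of the table hold them. H2-Eb1, H2-DMb1, H2-DMb2 and H2-Ob also hold the X box letters, found in 2.75% of windows, 17, 18, 18 and 15 bases before the Y box. The X letters followed by the Y letters within 30 bases on 1 strand occurred in 4 windows of the table (0.0122%), those of these 4 genes. H2-Aa has no match to the X letters and holds the cyclic AMP element, whose letters occur anywhere in 1.79% of windows. Neither window of H2-DMa held any of the 3 motifs. Sequence outside these 2 windows was not searched, so this does not show that H2-DMa lacks them.

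**Figure D1:**
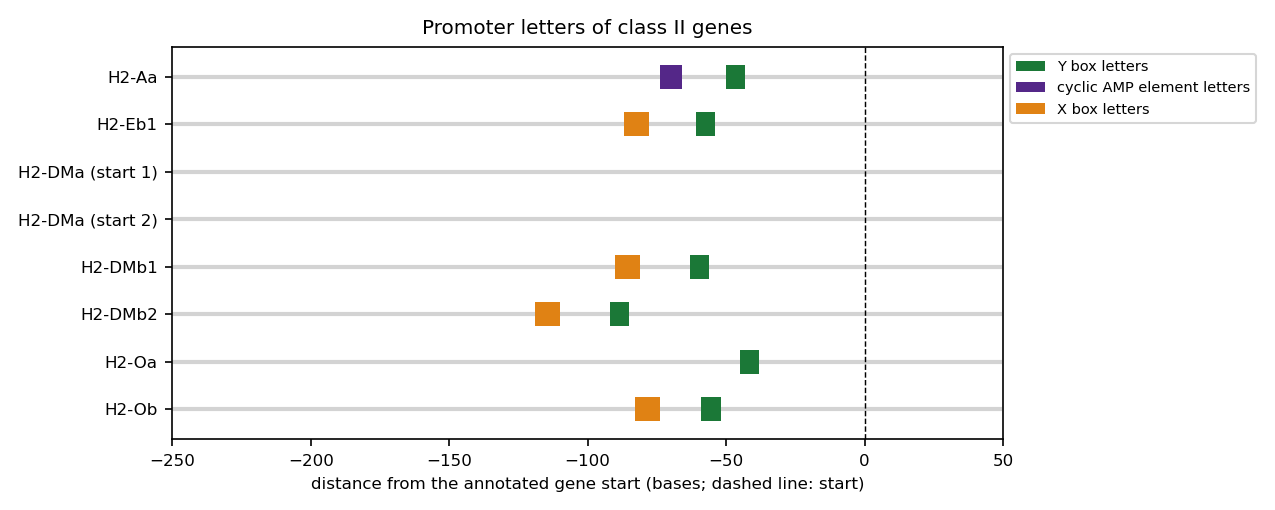
Positions of the X box letters, the Y box letters and the cyclic AMP element letters in 8 promoter windows of class II genes, with the distance from the annotated gene start in bases on the horizontal axis and 1 row for each window. In 6 windows the Y box letters start between 92 and 45 bases before the gene start, and the 2 windows of H2-DMa are empty.

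The whole windows are given, with the same marking, for H2-Aa and H2-Eb1, the I-A and I-E chains that the promoter table holds.
H2-Aa, chr17:34287774-34288073, - strand: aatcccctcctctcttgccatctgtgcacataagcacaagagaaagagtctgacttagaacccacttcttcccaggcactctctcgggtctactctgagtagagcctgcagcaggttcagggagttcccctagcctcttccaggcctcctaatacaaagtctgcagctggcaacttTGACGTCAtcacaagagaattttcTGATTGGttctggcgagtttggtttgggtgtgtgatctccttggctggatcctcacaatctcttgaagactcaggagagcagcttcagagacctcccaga
H2-Eb1, chr17:34305617-34305916, + strand: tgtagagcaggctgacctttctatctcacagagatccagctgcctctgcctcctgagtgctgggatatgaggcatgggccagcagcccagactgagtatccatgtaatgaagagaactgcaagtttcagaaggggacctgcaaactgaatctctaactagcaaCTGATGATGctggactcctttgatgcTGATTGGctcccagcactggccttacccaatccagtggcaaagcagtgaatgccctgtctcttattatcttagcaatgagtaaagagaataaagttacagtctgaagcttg
The Y box letters start 50 bases before the annotated start of H2-Aa and 61 bases before that of H2-Eb1. A match describes these letters only, and no binding was measured here.

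Intensities are linear array units, and on each array 19.7% to 23.8% of all values were below 0. The share below 0 was lower in mdx, with a mean of 20.8% ± 1.10 against 23.4% ± 0.415 in control (SD, n = 5 each, exact permutation p = 0.00794, two-sided, the smallest that 5 arrays against 5 can give). The ratio of the far ends of the actin transcript, a sign of RNA quality, was 1.02 ± 0.0482 in mdx and 1.13 ± 0.0384 in control (exact permutation p = 0.0159). The factor that scales an array to its hybridization controls also differed, at 1.26 ± 0.171 in mdx and 0.806 ± 0.0984 in control (exact permutation p = 0.00794). Scaling to these controls therefore shifts 1 group against the other. The trimmed mean of mdx replicate 1 was 723.1, against 800.7 to 800.9 on the other arrays. Markers of muscle fibres such as Ckm and Acta1 were bright on every array, which matches the labelled tissue. Of 8 such markers 6 fell in mdx, a count that was 0 under scaling to the hybridization controls and 3 after quantile normalization. A value is called below the noise level when it is under 372.4, the root mean square of all values below 0. Changes are differences of log2(intensity + 372.4), mdx minus control, which understate the change of dim probe sets. The change of each tested member is given with its standard error (SE) and adjusted p by limma. For other genes either value may be left out.

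Of the 11 class II probe sets, 6 rose in mdx muscle, 0 fell and 5 were too dim to test (limma, adjusted p below 0.05). Over all 7612 tested probe sets 15.8% were called higher and 33.6% in either direction. The 6 belong to H2-Aa, H2-Ab1, H2-Eb1, Cd74, H2-DMa and H2-DMb1, and in each of them every mdx array lay above every control array, which held for 12.3% of all tested probe sets (25.1% with either group on top). The probe sets of H2-DMa and H2-DMb1 passed the filter on dim values through their mdx arrays, with 1 control array of H2-DMa and 0 of H2-DMb1 above it, so that they had to differ. H2-Ea, H2-DMb2, H2-Oa and Ciita had no probe set with signal in either group. The H2 genes are highly variable between mouse strains, and whether these probe sets match the alleles of both groups equally was not tested, since no strain or haplotype is given. In pieces of muscle, more class II cells and more class II RNA per cell cannot be told apart.

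The I-A alpha chain gave the largest change of the members. H2-Aa had 8887, 10587, 10117, 10559 and 10527 units on the mdx arrays, against 663, 823, 220, 162 and 662 units on the control arrays. The mdx arrays lay within 1.19-fold of each other, while 2 of the 5 control arrays were below the noise level. The means were 10135 ± 724 in mdx and 506 ± 295 in control (SD, n = 5 each), a ratio of 20.03, and the log2 change was 3.65 (SE 0.20, limma adjusted p = 6.35e-08). Only 4 of the 7612 tested probe sets had a higher log2 change, so that H2-Aa ranked 5 among them.

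H2-Ab1, the beta chain that pairs with H2-Aa, had 3053, 3392, 3469, 2878 and 3530 units on the mdx arrays, against 513, 485, -45.0, 331 and 355 units on the control arrays. The mdx values were again close together, and 3 of the 5 control arrays were below the noise level, so the size of the change depends on how noise is treated. The log2 change was 2.42 (SE 0.20, limma adjusted p = 1.62e-06). Over the processing alternatives it ran between 1.91 and 2.95.

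H2-Eb1, the beta chain of I-E, was the class II chain with the clearest signal in control muscle. It had 4973, 5540, 5528, 4677 and 5387 units on the mdx arrays, against 1410, 686, 587, 922 and 1217 units on the control arrays. All 10 values were above the noise level and the groups were well apart, although the control values themselves spread 2.40-fold. The means were 5221 ± 381 in mdx and 964 ± 348 in control (SD, n = 5 each). Their ratio was 5.41, and the log2 change 2.10 (SE 0.15, limma adjusted p = 5.98e-07).

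H2-Ea, the alpha chain that would pair with H2-Eb1, was at background in both groups. Its probe set gave 22.6, 81.5, -17.1, 24.6 and -60.0 units on the mdx arrays, against 62.3, -48.4, 44.7, -24.2 and 27.8 units on the control arrays. The values straddled 0 in both groups and overlapped throughout, and the probe set was not tested. The reference annotation, made from the C57BL/6J strain, lists H2-Ea as a transcribed pseudogene. Mice of the b haplotype of H2 are known not to express it, and the labels give no haplotype for these mice.

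Cd74, the invariant chain, had the smallest p of the members. It had 10982, 16127, 13424, 16800 and 14933 units on the mdx arrays, against 2293, 1576, 1631, 1610 and 1667 units on the control arrays. Every value was above the noise level. The mdx arrays spread 1.53-fold, more than those of the I-A and I-E chains, and control replicate 1 stood above the other 4. The means were 14453 ± 2326 in mdx and 1756 ± 302 in control (SD, n = 5 each), and their ratio was 8.23. The log2 change was 2.80 (SE 0.12, limma adjusted p = 9.37e-09). Cd74 lies on chromosome 18, away from the H2 genes of chromosome 17.

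**Figure D2:**
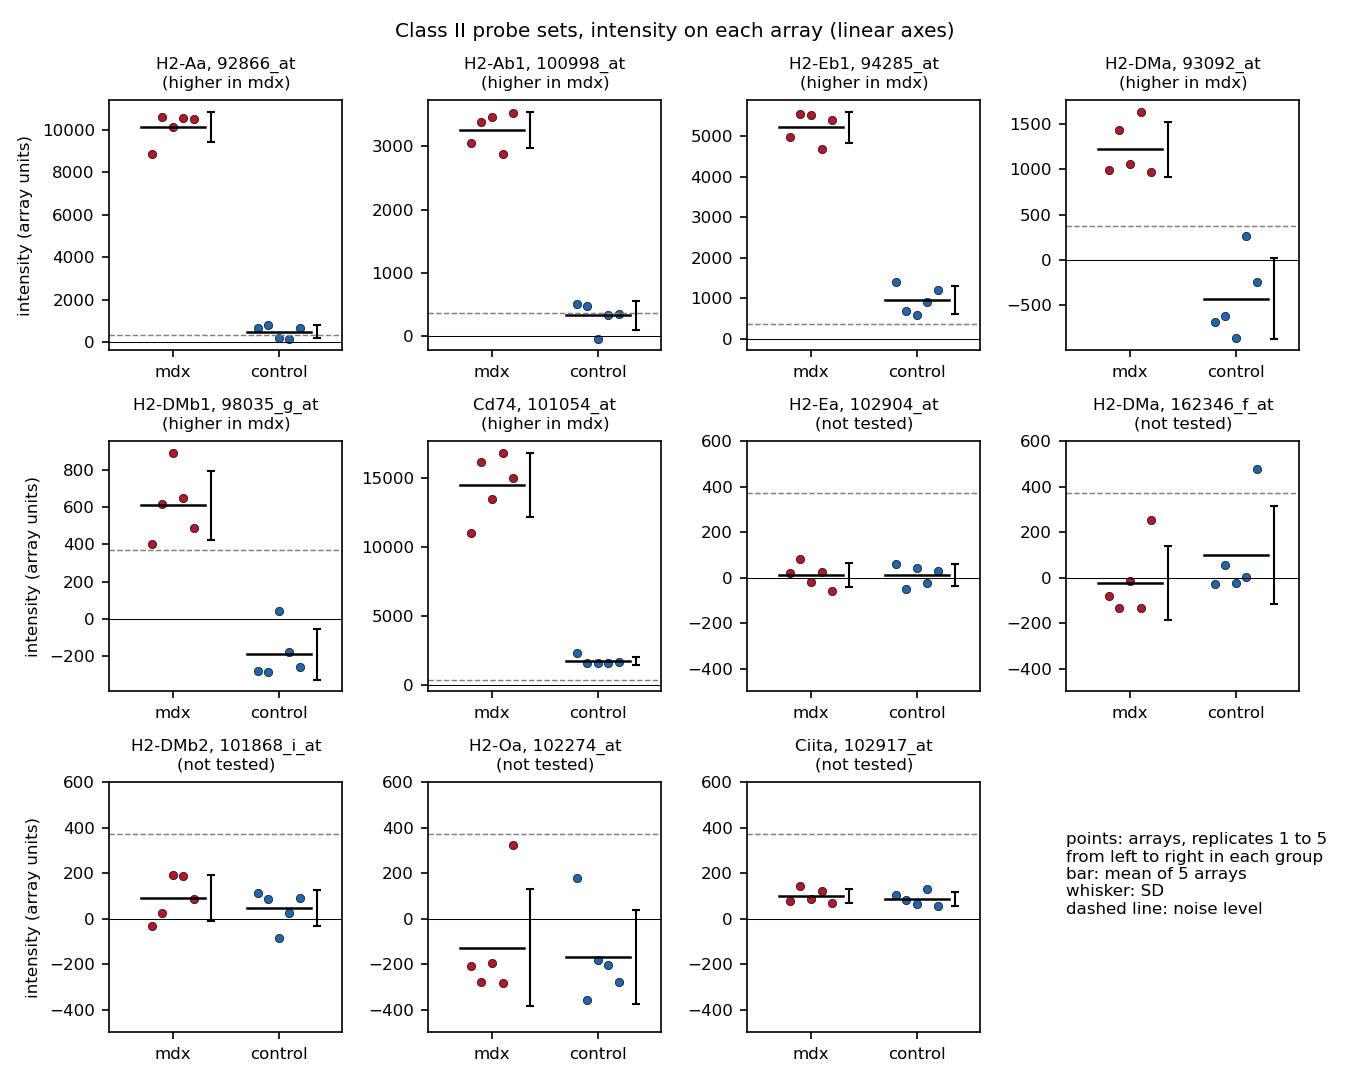
Intensity of the 11 class II probe sets on each array, in array units on linear axes, with mdx left of control in each panel, points for replicates 1 to 5, bars for the mean, whiskers for the SD (n = 5) and a dashed line at the noise level. The first 6 panels show the probe sets that were higher in mdx, where the groups do not overlap, and the other 5 show probe sets below the noise level on every array except control replicate 5 of 162346_f_at.

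The peptide exchange factor H2-DM was measured by 2 probe sets for its alpha chain and 1 for each beta chain, and these differed in signal. H2-DMa on probe set 93092_at had 988, 1438, 1063, 1637 and 973 units on the mdx arrays, against -687, -614, -859, 261 and -240 units on the control arrays. All mdx arrays were above the noise level and all control arrays below it, and H2-DMa was at least 3.20-fold higher (log2 change 1.92, SE 0.17, limma adjusted p = 3.42e-06). This bound sets the geometric mean of the mdx arrays against the noise level.

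The other H2-DMa probe set, 162346_f_at, was below the noise level on all arrays but control replicate 5. Its values were -82.0, -133, -16.5, -132 and 256 units on the mdx arrays, against -27.0, 56.8, -21.7, 4.81 and 478 units on the control arrays. The groups overlapped, and replicate 5 was the highest array of both groups. The f in its name marks a probe set that the manufacturer took to match a family of sequences, and the 2 probe sets of H2-DMa disagree.

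H2-DMb1 had 401, 616, 893, 650 and 486 units on the mdx arrays, against -280, -283, 44.0, -178 and -257 units on the control arrays. It was at least 1.58-fold higher (log2 change 1.35, SE 0.12, limma adjusted p = 4.17e-06), and its mdx arrays spread 2.23-fold, the widest of the 6 risen probe sets. The size of this change depended on the value added before the logarithm, with 0.83 for double the noise level and 2.18 for the median-based noise level, and the call held in both. The g in the name 98035_g_at marks a probe set that can match a group of related genes. A further probe set, annotated to both H2-DMb1 and H2-DMb2 and so outside the rule, had 256, 145, 433, 433 and 117 units on the mdx arrays, against -119, -260, -112, -66.4 and -150 units on the control arrays. It was too dim to test, although the groups did not overlap. H2-DMb1 and H2-DMb2 are close relatives, and their transcripts may not be separated by these probe sets.

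H2-DMb2 on its own probe set had -32.7, 23.7, 193, 188 and 86.5 units on the mdx arrays, against 115, 85.8, -83.9, 26.0 and 93.0 units on the control arrays. H2-Oa, the alpha chain of the H2-DM inhibitor H2-O, had -207, -278, -195, -281 and 325 units on the mdx arrays, against 181, -358, -181, -202 and -277 units on the control arrays. Both were below the noise level on all 10 arrays and overlapped between the groups. Their partner H2-Ob, whose promoter also holds the X and Y letters shown above, was below the noise level on all 10 arrays too, with means of 147 ± 38.0 units in mdx and 162 ± 31.6 units in control.

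Ciita, the class II coactivator, had 76.0, 144, 88.1, 122 and 68.0 units on the mdx arrays, against 104, 82.6, 62.8, 130 and 56.2 units on the control arrays. The groups overlapped fully below the noise level. A change of Ciita was therefore not detectable here, which does not show that its level was the same.

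Within the mdx group the class II probe sets did not follow 1 order of arrays. Replicate 1 was the lowest mdx array for H2-Aa, Cd74 and H2-DMb1, replicate 4 for H2-Ab1 and H2-Eb1, and replicate 5 for H2-DMa. Replicate 4, lowest for those 2 beta chains, was the highest mdx array for Cd74 and H2-DMa. Replicate 1 also had the lower trimmed mean given above. With all arrays brought to equal trimmed means, H2-Aa of replicate 1 came to 9747 units, against 10020 to 10486 units on the other mdx arrays, and Cd74 to 12044 units, against 13294 to 16639 units. It stayed the lowest mdx array for both and for H2-DMb1, at 440 units against 481 to 885 units.

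Of the 10 members, 8 lie on chromosome 17 between H2-Oa and H2-Ea, in a stretch of 15 protein-coding genes or pseudogenes in the reference table. The order there is H2-Oa, Brd2, H2-DMa, H2-DMb2, H2-DMb1, Psmb9, Tap1, Psmb8, Tap2, H2-Ob, H2-Ab1, H2-Aa, H2-Eb1, H2-Eb2 and H2-Ea. Of the 7 neighbours that are not members, 5 were tested, 3 rose and 0 fell, against 15.8% called higher over all tested probe sets. The 3 were the immunoproteasome subunits Psmb9 (log2 change 1.01, limma adjusted p = 8.07e-07) and Psmb8 (1.28, adjusted p = 1.09e-06) and the peptide transporter Tap1 (0.40, adjusted p = 0.0184), all of class I presentation. Psmb9 passed the filter on dim values only through its mdx arrays and so had to differ, and with all 5 control arrays below the noise level its fitted change gives no fold. Brd2, a chromatin reader, did not pass (0.12, adjusted p = 0.618). Its probe set was dim, with 1 mdx array and 0 control arrays above the noise level, so a change was hardly detectable. Probe sets with and without signal belonged to genes side by side, as H2-DMb1 next to H2-DMb2 and H2-Eb1 next to H2-Eb2.

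The other genes of the pathway were taken from a list of 42, of which 36 had a probe set and 31 were tested. Of these, 13 rose and 4 fell, with a median log2 change of 0.16 against -0.03 over all tested probe sets. Of all tested probe sets 15.8% were called higher and 17.8% lower. Each gene is given by its brightest probe set.

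Of 10 tested proteases and loading partners, 8 rose and 0 fell, with a median log2 change of 1.51. Over all tested probe sets 15.8% were called higher. Ctss, the cathepsin that cuts the invariant chain in macrophages and dendritic cells, had 11128, 13079, 14506, 15105 and 13397 units on the mdx arrays, against 1050, 749, 732, 552 and 662 units on the control arrays. The groups were far apart, and the log2 change was 3.63 (SE 0.12, limma adjusted p = 1.33e-09), close to that of H2-Aa. Ctsh, a cathepsin with aminopeptidase activity, rose by 2.38 and Lgmn, the asparaginyl endopeptidase legumain, by 1.77. Ifi30, the thiol reductase that opens disulfide bonds of antigens, was at least 3.07-fold higher, with all control arrays below the noise level. Ctsb and Ctsc rose by 1.51 each, Ctsz by 1.14 and Ctsl by 1.07. Ctsd, cathepsin D, did not pass (0.15, adjusted p = 0.303), but was called higher at 0.36 after quantile normalization and at 0.77 after scaling to the hybridization controls.

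Of 5 tested factors of the class II promoter, 1 rose and 2 fell, against 15.8% higher and 17.8% lower over all tested probe sets. Nfya, a subunit of the Y box factor NF-Y, had 387, 517, 351, 425 and 568 units on the mdx arrays, against 169, -82.3, 271, 250 and 237 units on the control arrays, a rise of 0.58 (SE 0.15, limma adjusted p = 0.00914). Its control values were all below the noise level. Its partner Nfyc fell by 0.31 (adjusted p = 0.00419), with a change of sign to 0.25 under scaling to the hybridization controls. Nfyb, the third subunit, did not pass (-0.27, adjusted p = 0.425). Without control replicate 1 it was called lower, at -0.50 (adjusted p = 0.0371). The coactivator Crebbp fell by 0.81, with means of 454 ± 106 units in mdx and 1080 ± 240 units in control (SD, n = 5 each, adjusted p = 0.000468). Rfxank, a subunit of the X box factor, did not pass (0.27, adjusted p = 0.440), but was called higher at 0.63 (adjusted p = 0.0420) after scaling to the hybridization controls. Rfx1 and Creb1 were below the noise level on all arrays.

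Of 7 tested genes of the interferon-gamma pathway 0 rose and 1 fell by limma's adjusted p, with 1 higher and 1 lower at an unadjusted p under 0.05. The kinase Jak2 fell by 0.39 (adjusted p = 0.00553), a call that was lost with scaling to the hybridization controls (-0.04, adjusted p = 0.839). Irf1, the transcription factor that interferon-gamma induces, had 1414, 1501, 1578, 1391 and 1508 units on the mdx arrays, against 1209, 1244, 1284, 1273 and 1329 units on the control arrays. The groups did not overlap, but the log2 change of 0.17 missed the threshold (SE 0.07, adjusted p = 0.0658). It was called higher with equal trimmed means (adjusted p = 0.0322), with no filter (adjusted p = 0.00614) and after scaling to the hybridization controls (adjusted p = 0.000554). The receptor chains Ifngr1 and Ifngr2 did not pass, at -0.26 and -0.15, and Ifng itself was below the noise level on all 10 arrays.

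Among the listed tetraspanins, 4 of 5 tested rose and 0 fell, against 15.8% called higher over all tested probe sets. Marchf1 and Marchf8, listed for surface turnover, had no probe set, so turnover was not measured. Cd53, a leukocyte tetraspanin, was at least 4.54-fold higher, but it passed the filter only through its mdx arrays and so had to differ. Cd63, of late endosomes, rose by 0.74, Cd82 by 0.65 and Cd9 by 0.47, while Cd81 did not pass (-0.09, adjusted p = 0.512). A dimmer probe set of Cd82 did not pass (0.30, adjusted p = 0.238). On the side of costimulation and the T cell, 0 of 4 tested rose and 1 fell by limma, with 0 higher at an unadjusted p under 0.05. The costimulators Cd80, Cd86 and Cd40 were below the noise level on all 10 arrays. Cd4, the coreceptor that binds class II, had -174, 177, 68.2, 15.4 and -196 units on the mdx arrays, against 1056, 234, 450, 303 and 220 units on the control arrays. All mdx arrays lay below every control array, as in 12.7% of tested probe sets, and below the noise level, 3 of the 5 control arrays were below it too, and the log2 change was -0.89 (SE 0.22, limma adjusted p = 0.00724). Cd4 passed the filter through its control arrays, with 1 mdx array above it, and so had to differ.

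**Figure D3:**
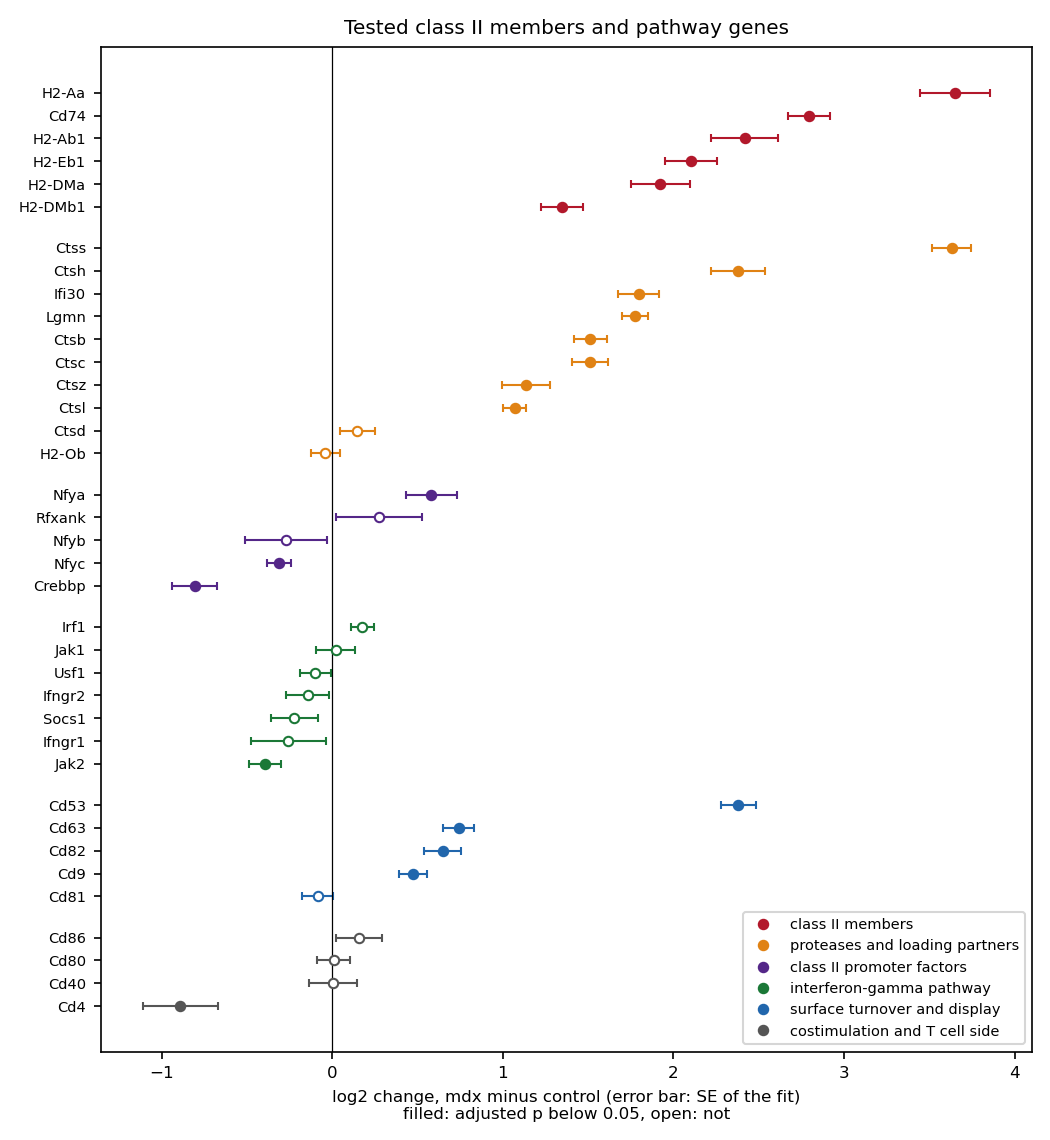
Log2 change (mdx minus control, horizontal axis, error bar SE of the fit) of the 6 tested class II probe sets and the 31 tested pathway genes, by role, with filled points for an adjusted p below 0.05. All 6 class II members and 8 of 10 proteases and loading partners lie right of 0 and are filled, and the promoter factors and interferon-gamma genes lie on both sides of 0.

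Markers of macrophages moved with the class II probe sets. Of 13 macrophage markers with a probe set 12 were tested and all 12 rose, with a median log2 change of 2.31. Over all tested probe sets 15.8% were called higher. Of the 12, Lgals3 and Adgre1 passed the filter through their mdx arrays, with 0 and 1 control arrays above it, and so had to differ. A dimmer probe set of Csf1r, another of the 12, did not pass (0.01, limma adjusted p = 0.944). The summed intensity of the macrophage markers was 54747 to 72969 in mdx and 5052 to 8775 in control. The sum over the 11 class II probe sets was 29384 to 37949 in mdx and 2589 to 5342 in control. Lgals3, the galactose-binding lectin of activated macrophages, was at least 25.6-fold higher and Tyrobp, a myeloid signalling adaptor, at least 14.5-fold higher. Lyz2, a macrophage lysozyme, rose by 3.37 and Mpeg1, a pore-forming protein of macrophages, by 2.58. Itgam was below the noise level on all 10 arrays. Of 5 general leukocyte markers 4 were tested and rose, among them Cd52 (2.24) and Ptprc (0.95), the common leukocyte phosphatase. Ptprc and Cd53 passed the filter only through their mdx arrays and so had to differ, and Coro1a was below the noise level on all 10 arrays. The part of these cells in the class II change was not tested.

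Markers of the other class II cells were called in both directions, as were all tested probe sets (15.8% higher, 17.8% lower). With so few tested genes, these counts say little about the cells. Of 10 dendritic cell markers with a probe set 6 were tested, 2 rose and 1 fell, and the summed intensity overlapped at 7366 to 9424 in mdx and 6547 to 8559 in control. Itgax, the integrin CD11c, rose at least 1.87-fold (log2 change 0.80, limma adjusted p = 0.00047). The factor Batf3 rose by 0.30 (adjusted p = 0.0271) and the receptor Flt3 fell by 0.51 (adjusted p = 0.0273). Another Flt3 probe set of like brightness, above the noise level on all 10 arrays, did not pass and had the opposite sign (0.15, adjusted p = 0.544). The call of Batf3 was lost without mdx replicate 2 (0.26, adjusted p = 0.0677) or 5 (0.28, adjusted p = 0.0512), or control replicate 4 (0.26, adjusted p = 0.064) or 5 (0.28, adjusted p = 0.0623). The call of Flt3 was lost without mdx replicate 1 (-0.46), 2 (-0.42), 3 (-0.50) or 4 (-0.50), or control replicate 1 (-0.46), 3 (-0.48) or 4 (-0.50). Ccr7, Ccl17 and Xcr1 were below the noise level on all 10 arrays. The brightest probe set of Cd83 was too dim to test, although its groups did not overlap. Its means were 280 ± 117 units in mdx and 31.5 ± 40.1 units in control. Another Cd83 probe set overlapped between the groups and did not pass (0.33, adjusted p = 0.0769).

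Of 10 B cell markers with a probe set 6 were tested, 1 rose and 2 fell, and their summed intensity was lower in mdx, at 5913 to 7626, against 8146 to 12966 in control. Ighm was by far the brightest of these markers, with means of 3943 ± 591 units in mdx and 6498 ± 1728 units in control. The difference of the sums therefore rests largely on Ighm. Blnk, an adaptor that macrophages also use, rose by 0.72 (limma adjusted p = 0.00326), while Ighm, the immunoglobulin mu chain, fell by 0.65 (adjusted p = 0.00488) and Ms4a1, or CD20, by 0.47 (adjusted p = 0.00641). Other probe sets of Ighm went both ways, 1 of them called lower at -2.04 (adjusted p = 1.11e-06) and 1 called higher at 0.45 (adjusted p = 0.0437). Cd79a, Cd22, Cr2, Fcer2a and Cd72 were below the noise level on all 10 arrays. Cd72 was not tested, although its groups did not overlap, as in 12.3% of tested probe sets with mdx higher. Its means were 155 ± 23.9 units in mdx and -5.50 ± 35.4 units in control. Of 9 T cell markers with a probe set, Cd3d, Cd3e, Cd3g, Cd8a, Cd8b1 and Cd5 were below the noise level on all 10 arrays. Of the 3 that were tested Thy1, also a marker of fibroblasts, rose by 1.17, Cd4 fell as given above and Zap70, a T cell kinase, did not pass (0.73, adjusted p = 0.320).

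**Figure D4:**
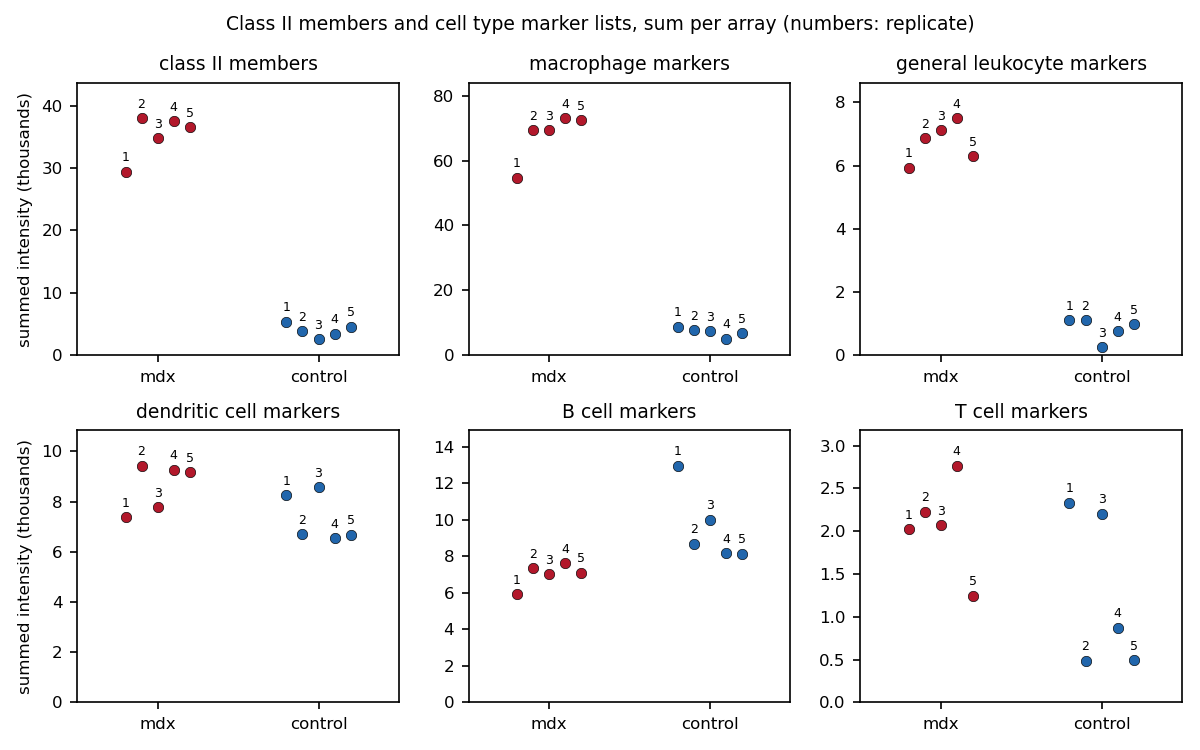
Summed intensity per array, in units of 1000 with negative values set to 0, of the 11 class II probe sets and of 5 marker lists (the brightest probe set of each gene), with mdx left of control and the replicate number above each point. The groups are apart for class II, macrophage and general leukocyte markers, with mdx higher, and for B cell markers, with mdx lower, and overlap for dendritic and T cell markers. The difference of the B cell sums rests largely on Ighm.

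The genes whose pattern over the 10 arrays was most like the class II chains came from several families. The pattern was the mean of H2-Aa, H2-Ab1, H2-Eb1 and Cd74, each as log2 value minus its control mean, and likeness was the root mean square difference from it over 5758 other genes. C1qa, a chain of complement C1q, was nearest (0.26 log2 units), followed by Ctsh (0.28) and the macrophage elastase Mmp12 (0.32). Then came Mpeg1 (0.33) and the actin-severing protein Cfl1 (0.33). Every control array of Mmp12 was under the noise level. Mmp12 passed the filter on dim values only through its mdx arrays and so had to differ. Cd74 itself differed from this mean by 0.20, H2-Ab1 by 0.29, H2-Eb1 by 0.48 and H2-Aa by 0.68. These 4 are part of the mean, which makes their differences smaller, so they are not like for like with those of other genes. C1qa had 5364, 8325, 7683, 9274 and 8302 units on the mdx arrays, against 1468, 1164, 914, 871 and 1091 units on the control arrays. As in Cd74, its lowest mdx array was replicate 1 and its highest replicate 4. The 10 arrays share 2 groups, so that likeness here rests mostly on the size of the group difference.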

How the data were processed

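Total RNA of 10 muscle samples was measured on an Affymetrix-style array of 12488 probe sets, and 66 control probe sets were left out. The deposited values are linear intensities per probe set, made by the authors with software, background correction and scaling not given in the sources used here, and all arrays but mdx replicate 1 have nearly the same trimmed mean. Probe sets were named through the platform annotation (10833 with 1 gene, 396 with several), and 0 symbols changed in the reference table. Values under 0 counted as 0, and 372.4 was added before taking log2. This root mean square is larger than a noise level based on the median (156.8). A probe set was tested when it exceeded 134.2, the 40th percentile, on at least 5 of the 10 arrays, which left 7612. The test was that of limma 3.58.1 (R 4.3.3; lmFit and eBayes with trend, two-sided), adjusted by Benjamini-Hochberg over all 7612, at a threshold of 0.05. Where all arrays of a group were below the noise level, a fold is a lower bound. The script was tested on simulated data. The members, lists and rules were chosen with earlier results of these data known. All members are named, and of the pathway list any tested gene. Of each marker list up to 4 genes with the smallest p are named, with others that limit a count. The 5 genes most alike are named too. The number of arrays limits the precision.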

Additional observations from a re-analysis of the deposited data

Results flagged for a closer look

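Among the 94 groups of 5 arrays of the class II and pathway genes, 9 had an array that stood apart from the other 4 by Dixon's test, where chance gives about 1 in 20, or 4.7. In 4 cases the gene was a class II member. H2-Aa was low on mdx replicate 1, at 8887 units with the next array at 10117. Cd74 was high on control replicate 1, at 2293 units with the next at 1667. The probe set 162346_f_at of H2-DMa was high on control replicate 5, at 478 units with the next at 56.8, and H2-Oa on mdx replicate 5, at 325 units with the next at -195, both with the other arrays of the group near or below 0. Among the pathway genes, Lgmn was high on mdx replicate 2 (4158 units), Cd9 on mdx replicate 3 (6594 units) and Cd4 on control replicate 1 (1056 units). Nfya was low on control replicate 2 (-82.3 units) and Cd86 on mdx replicate 3 (181 units). Leaving out these arrays ended no call of a class II member.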

How the results depend on the processing

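The 6 class II rises kept their direction and their call under every alternative in which the probe set was tested, with 0 falls throughout. The log2 change ran over 3.15 to 4.10 for H2-Aa, 1.91 to 2.95 for H2-Ab1, 1.82 to 2.61 for H2-Eb1, 2.60 to 3.36 for Cd74, 1.30 to 2.83 for H2-DMa and 0.83 to 2.18 for H2-DMb1. The noise level taken from the median of the values below 0 (156.8), chosen after the data had been seen, gave the highest values of H2-Ab1, H2-DMa and H2-DMb1, which are dim in control. With a filter on all 10 arrays, 3 class II probe sets were tested and called, since that filter removes those dim in control. Scaling to the hybridization controls moved the median of all probe sets to 0.35, against -0.03, with 3527 called higher and 125 lower, against 1202 and 1352, and 20 pathway genes higher and 2 lower, against 13 and 4. Under it Nfyb (0.27), Nfyc (0.25), Ifngr1 (0.10), Ifngr2 (0.17) and Cd81 (0.48, called) turned positive, and Flt3 (-0.03), Ighm (-0.06) and Ms4a1 (-0.04) were no longer called. The cause was not tested. Of the 31 pathway genes 11 changed sign under some alternative, 1 of them a called one, Nfyc. Leaving out single arrays kept 6 class II rises, gave 13 pathway rises and 4 to 5 falls, and 1092 to 1216 higher and 1176 to 1322 lower calls over all. Same-numbered arrays of the groups did not deviate together (correlations of -0.16 to 0.0443), so the numbers were not taken as pairs. With the replicate number as a block, 6 class II rises were called and 1088 probe sets were higher and 1150 lower, and Batf3 was no longer called (adjusted p = 0.0637).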
